A study of Mus musculus with 10 samples.

Results

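The 10 adherens junction genes described here encode the cadherins, catenins, nectins and associated proteins that join endothelial cells side by side. They were selected by gene name, in a list drawn up with earlier results of these data known, as *Cdh5*, *Cdh2*, *Ctnnb1*, *Ctnna1*, *Ctnnd1*, *Jup*, *Pecam1*, *Afdn*, *Nectin2* and *Nectin3*, and all 10 were found among 27024 named rows of an RNA-seq table. The cells were bEnd.3, an immortalised wild-type line of mouse brain endothelial cells. One group of 5 samples received saline (replicates 1, 2, 3, 4 and 5) and the other received 5 nM StcE (replicates 1, 2, 3, 5 and 6), a bacterial protease that cuts proteins with dense mucin-type O-glycans. Both groups were collected after 16 h. Neither group received catalytically inactive StcE, and bEnd.3 is a single line grown without the pericytes and astrocytes that surround brain endothelium in tissue.

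Adherens junctions hold neighbouring cells together through cadherins, whose extracellular parts bind across the gap in the presence of calcium. Inside the cell the cadherin tail binds β-catenin or plakoglobin, which bind α-catenin and through it actin, while p120-catenin binds nearer the membrane and keeps the cadherin from being internalised. Nectins form a parallel adhesion system tied to actin by afadin, and PECAM-1 is an immunoglobulin-family adhesion molecule of endothelial contacts. In brain endothelium these contacts support the tight junctions of the blood–brain barrier.

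The values are FPKM (fragments per kilobase of gene, scaled between samples by the authors). Between 21864604 and 33147402 fragments per sample were recovered from them, over 25898 genes that gave whole fragments in every sample. *Ctnna1* was not among those genes. The cells carried an endothelial signature, with 14 of 14 endothelial markers at a mean of at least 1 FPKM, among them *Cdh5* and *Pecam1* themselves. Of the measured markers of other cells, 1 of 7 mural (*Acta2*), 1 of 5 fibroblast (*Pdgfra*), 1 of 5 immune (*Cd68*), 0 of 6 epithelial and 0 of 8 glial and neuronal genes reached that level. The endothelial marker *Vwf* was close to it (means of 1.42 FPKM with saline and 1.14 with StcE), while *Cd68* was well above it (20.4 and 19.7). The first principal component (27.9% of the variance) set the StcE group apart from the saline group. Labels give no culture or plate for each replicate, so the p-values measure the spread between these samples, which may be technical.

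The 10 genes spanned a 186.2-fold range of mean FPKM, and their order was the same in both groups. With saline, *Cdh5* stood highest at 509.1 ± 25.9 FPKM (SD, n = 5), in the 99.5th percentile of the 11062 genes tested. *Pecam1* (301.9 ± 10.4), *Ctnnb1* (201.1 ± 3.94) and *Ctnna1* (187.6 ± 6.79) followed, and then *Nectin2* (80.1 ± 2.53) and *Afdn* (36.7 ± 1.67). *Cdh2* (9.44 ± 0.586), *Ctnnd1* (7.90 ± 0.396), *Jup* (4.89 ± 0.308) and *Nectin3* (2.58 ± 0.193) made up the low end. The values of neighbours in this order overlapped for 1 pair, *Ctnnb1* and *Ctnna1* with saline, which with StcE were apart. The low position of *Ctnnd1* among the catenins carries a limit, since 61.2% of its exon length in GENCODE vM21 lies under another gene on the same strand, *Gm28635*, and how fragments shared by both were counted is not given in the sources used here.

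**Figure D1:**
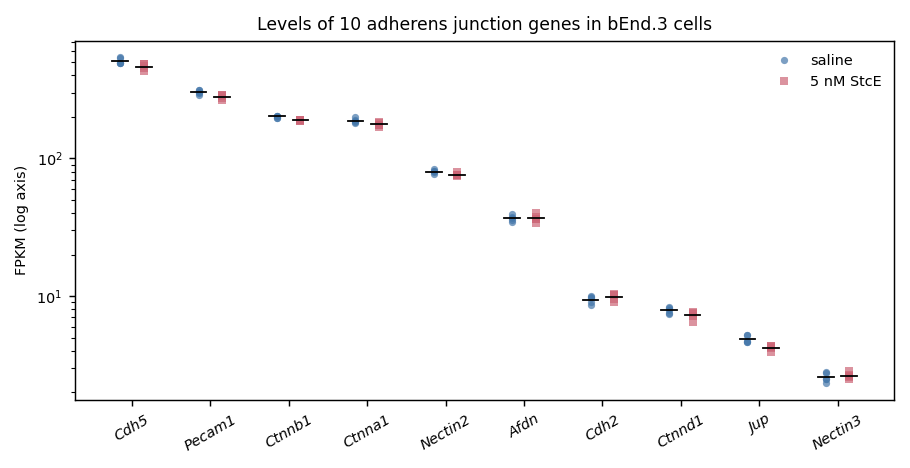
FPKM on a log axis for each of the 10 genes, ordered by level, in 5 saline samples (circles) and 5 StcE samples (squares), with black lines at the group means. The groups lie close together for every gene against the 186.2-fold range between *Cdh5* and *Nectin3*.

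The comparison of StcE with saline asked how cutting of mucin-domain glycoproteins at the cell surface was followed by changes in the mRNA of these junction proteins. Differences were small and mostly downward. *Ctnnb1*, *Jup* and *Pecam1* fell, 3 of the 10 genes, and 0 rose, whereas 7 did not pass the test (limma on log2(FPKM + 1), Benjamini-Hochberg adjusted p under 0.05). At an unadjusted p under 0.05 there were 7, all lower, against 27.8% of all genes tested. Over all genes tested, 6.41% were lower and 5.52% higher by the same rule, or 11.9% in either direction. The groups did not overlap for 3 of the 10 genes (*Cdh5*, *Ctnnb1* and *Jup*), against 10.7% of all genes tested. The median log2 fold change of the 10 was -0.09, against -6.6e-04 over all genes tested. For 7 of the 10 every StcE sample lay below the saline mean, but the share of all genes tested that did so was not counted.

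**Figure D2:**
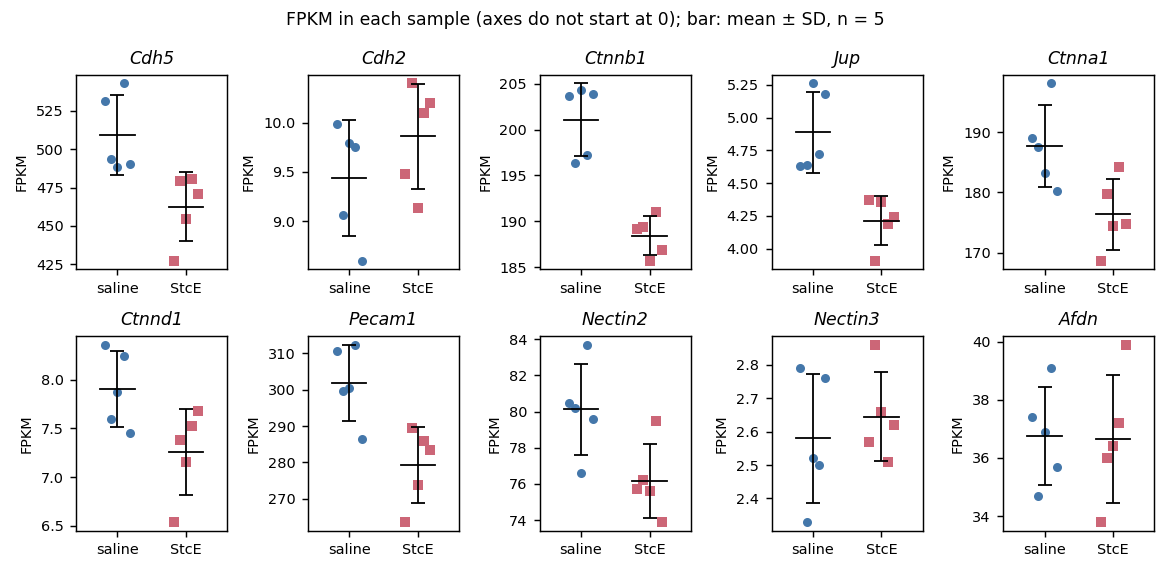
FPKM of each gene in 5 saline samples (circles) and 5 StcE samples (squares), with the mean and SD of each group in black and axes that do not start at 0. No StcE sample reaches the lowest saline sample for *Cdh5*, *Ctnnb1* or *Jup*, while the groups share most of their range for *Afdn* and *Nectin3*.

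Of the cadherins, *Cdh5* (chromosome 8, 104101625 to 104144511, GRCm38) encodes VE-cadherin, the main cadherin of endothelial junctions. Its FPKM was 531.2, 493.3, 488.1, 542.9 and 490.2 in saline replicates 1 to 5, and 427.4, 479.5, 454.8, 480.7 and 470.9 in StcE replicates 1, 2, 3, 5 and 6. Every StcE sample lay under every saline sample, with StcE replicate 1 the lowest and saline replicate 4 the highest. The log2 fold change was -0.14 (standard error 0.0413, 95% interval -0.23 to -0.05), and the limma adjusted p of 0.0515 missed the threshold. An exact two-sided permutation test of *Cdh5* alone gave p = 0.00794, the smallest that 5 samples against 5 allow. Leaving out any 1 sample gave limma adjusted p-values of 0.053 to 0.115, so no single omission brought *Cdh5* past the threshold.

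*Cdh2* (chromosome 18, 16588877 to 16809246) encodes N-cadherin, which endothelial cells use in contacts with pericytes. Its FPKM was 9.99, 9.06, 9.79, 9.75 and 8.60 with saline and 9.48, 10.4, 9.13, 10.1 and 10.2 with StcE. The groups overlapped, with the lowest value in saline replicate 5 and the highest in StcE replicate 2. The log2 fold change of *Cdh2* was 0.06 (95% interval -0.04 to 0.16, limma adjusted p = 0.438), so a rise of more than 0.16 or a fall of more than 0.04 on this scale lies outside the interval.

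The balance of the cadherins was also measured within each sample, as *Cdh2* FPKM in percent of *Cdh5* FPKM, which does not depend on the scaling between samples. It was 1.880, 1.836, 2.005, 1.796 and 1.754% with saline and 2.218, 2.176, 2.007, 2.098 and 2.172% with StcE. The groups did not overlap, although saline replicate 3 and StcE replicate 3 were nearly level. *Cdh5* thus stood 49.9- to 57.0-fold above *Cdh2* with saline and 45.1- to 49.8-fold above it with StcE. As log2 ratios the means were -5.75 ± 0.074 and -5.55 ± 0.057 (SD, n = 5), a difference of 0.20 (standard error 0.042, exact two-sided permutation test, p = 0.00794, adjusted p = 0.0238 over the 3 ratios tested). The 3 ratios were chosen with earlier results of these data known, which this adjustment does not cover. Neither *Cdh2* nor *Cdh5* passed the test alone. With any 1 sample left out the difference was 0.184 to 0.232. Groups that do not overlap must keep an exact p of 0.0159 or lower in such fits, so that p was not a further test.

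**Figure D3:**
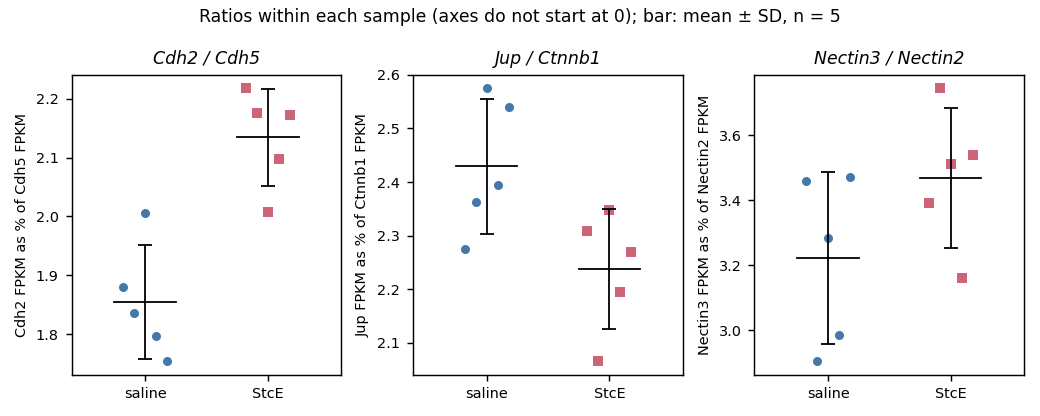
FPKM of 1 gene as a percentage of another within each sample, for 5 saline samples (circles) and 5 StcE samples (squares), with the group mean and SD in black and axes that do not start at 0. *Cdh2* against *Cdh5* separates the groups (up to 2.005% with saline, from 2.007% with StcE), whereas the other 2 ratios overlap.

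The catenins that bind the distal part of the cadherin tail, *Ctnnb1* and *Jup*, both fell. Their upstream sequence is shown because, of the 3 genes called, these were the ones with a window in the RefSeq table. Each stretch is the 250 bases before a RefSeq transcription start (GRCm38.p6), written 5′ to 3′ on the gene's strand, with capitals for the GC box GGGCGG and the CCAAT box CCAAT on either strand. The first, chr9:120933150-120933399 on the plus strand, lies inside the annotated bounds of *Ctnnb1*, which start at 120929216. The second, chr11:100397791-100398040 on the minus strand, lies just upstream of *Jup*, whose annotated bounds end at 100397763.
Ctnnb1: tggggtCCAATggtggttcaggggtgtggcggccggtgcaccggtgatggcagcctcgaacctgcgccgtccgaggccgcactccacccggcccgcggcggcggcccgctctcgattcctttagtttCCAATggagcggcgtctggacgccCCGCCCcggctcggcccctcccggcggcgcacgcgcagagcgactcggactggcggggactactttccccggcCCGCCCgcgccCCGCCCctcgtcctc
Jup: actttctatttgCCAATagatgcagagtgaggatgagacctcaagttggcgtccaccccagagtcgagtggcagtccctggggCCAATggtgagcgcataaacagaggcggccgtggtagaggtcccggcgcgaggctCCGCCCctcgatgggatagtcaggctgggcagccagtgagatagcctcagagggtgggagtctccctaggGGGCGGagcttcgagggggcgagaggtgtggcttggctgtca
The *Ctnnb1* stretch held 3 GC boxes and 2 CCAAT boxes, and the *Jup* stretch held 2 and 2, with no overlap between the motifs searched. Over the same stretch of all 32851 RefSeq windows, 32.7% held a GC box and 33.8% a CCAAT box. Neither of these stretches held the TATA box letters TATAAA (12.4% of all windows) or the ETS core letters GGAAG (64.1%). *Ctnnb1* has a second RefSeq window, chr9:120933328-120933577, which held 2 GC boxes, 0 CCAAT boxes and 1 TATAAA. It overlaps the first, and both of its GC boxes are among the 3 already counted. Among genes that did not pass the test, *Nectin3* held 5 GC boxes, *Afdn* 4 and *Nectin2* 2, all with 0 CCAAT boxes, and each of the 2 *Ctnnd1* windows held 0 GC boxes and 2 CCAAT boxes. G and C made up 74.8% of the *Ctnnb1* stretch and 62.0% of the *Jup* stretch, against a median of 52.4%. These matches are a description of the letters, and windows were found for 6 of the 10 genes.

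*Ctnnb1* (chromosome 9, 120929216 to 120960507) encodes β-catenin, which links cadherins to α-catenin and also carries Wnt signals to the nucleus. Its FPKM was 203.7, 196.4, 204.3, 197.2 and 203.9 with saline and 189.1, 189.4, 185.7, 191.0 and 186.9 with StcE. It had the tightest replicates of the 10, with coefficients of variation of 1.96% and 1.12%, and the groups did not overlap. *Ctnnb1* fell by 0.09 on the log2 scale (standard error 0.0201, limma adjusted p = 0.0128, exact two-sided permutation p = 0.00794). The call held when any 1 sample was left out (limma adjusted p 0.0139 to 0.0393) and was lost with the replicate number as a block (0.126). On the opposite strand, *Ulk4* covers 14.6% of the exon length of *Ctnnb1*. The libraries were made to keep strand, but the strand setting of the counting is not given in the sources used here.

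*Jup* (chromosome 11, 100368958 to 100397763) encodes plakoglobin, or γ-catenin, which takes the place of β-catenin on cadherin tails and also serves desmosomes. Its FPKM was 4.63, 4.64, 5.26, 4.72 and 5.18 with saline and 4.37, 3.91, 4.36, 4.19 and 4.24 with StcE, and the groups did not overlap. The mean went from 4.89 ± 0.308 to 4.21 ± 0.184 FPKM, 13.8% lower, the largest relative difference of the 10 genes. *Jup* fell by 0.17 on the log2 scale (standard error 0.0416, limma adjusted p = 0.0209), and missed the threshold without a filter (0.0563), with the replicate block (0.0881) and in the same 8 samples without the block (0.0511). Without the pseudocount the log2 ratio of the means was -0.21, since adding 1 to a low FPKM shrinks the difference. Between 661 and 973 fragments per sample lay behind *Jup*, for which counting alone gives a coefficient of variation of 3.89% at the lowest, against 6.29% measured with saline and 4.38% with StcE.

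*Jup* was present at a few percent of the FPKM of *Ctnnb1*, at 2.275, 2.362, 2.575, 2.395 and 2.540% with saline and 2.309, 2.066, 2.348, 2.195 and 2.270% with StcE. The groups overlapped. The log2 ratio of *Jup* to *Ctnnb1* differed by -0.12 (standard error 0.047, exact two-sided permutation test, p = 0.0317, adjusted p = 0.0476). It missed an exact p of 0.05 without saline replicate 3 (0.0714), 4 (0.0556) or 5 (0.0635) and without StcE replicate 2 (0.0714), 5 (0.0635) or 6 (0.0635), and with a pseudocount of 1 (exact p = 0.0794).

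*Ctnna1* and *Ctnnd1* did not pass the test. *Ctnna1* (chromosome 18, 35118859 to 35254779) encodes αE-catenin, the link from β-catenin to actin. Its FPKM was 189.1, 187.5, 183.3, 198.1 and 180.3 with saline and 168.7, 179.8, 174.4, 184.3 and 174.8 with StcE. For *Ctnna1*, StcE replicate 5 alone lay within the saline range, and StcE replicate 1 was again the lowest. Its log2 fold change was -0.09 (95% interval -0.16 to -0.02, limma adjusted p = 0.0857). *Ctnnd1* (chromosome 2, 84600071 to 84650765) encodes p120-catenin. It had 8.36, 7.60, 7.87, 8.24 and 7.45 FPKM with saline and 6.54, 7.38, 7.16, 7.52 and 7.68 with StcE. Its log2 fold change was -0.11 (95% interval -0.20 to -0.02, limma adjusted p = 0.125). StcE replicates 5 and 6 lay above the lowest saline sample of *Ctnnd1*, and the uncertainty about its shared exons applies to these values as well.

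*Pecam1* (chromosome 11, 106654217 to 106750628) encodes PECAM-1, or CD31, which binds itself across endothelial contacts and takes part in flow sensing. Its FPKM was 310.6, 299.6, 300.4, 312.3 and 286.3 with saline and 263.7, 289.5, 273.7, 285.8 and 283.5 with StcE. The groups overlapped, because StcE replicate 2 lay above saline replicate 5. *Pecam1* fell by 0.11 on the log2 scale (standard error 0.0320, limma adjusted p = 0.0425, exact two-sided permutation p = 0.0159). The call was lost without saline replicate 1 (limma adjusted p = 0.0976), 2 (0.0675), 3 (0.0759) or 4 (0.093) and without StcE replicate 1 (0.0862), 3 (0.101), 5 (0.058) or 6 (0.0552), with log2 fold changes from -0.09 to -0.13 over all 10 omissions. It was also lost with a mean FPKM minimum of 0.1 (limma adjusted p = 0.0623), no filter (0.125), upper quartile scaling (0.0504), eBayes without trend (0.0614), the replicate number as a block (0.231) or the same 8 samples without the block (0.108).

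Among the nectins and their anchor, 0 of 3 genes passed the test, by limma's adjusted p, and at an unadjusted p under 0.05 only *Nectin2* was below it. *Nectin2* (chromosome 7, 19716644 to 19750483) encodes the more abundant nectin of these cells. It had 80.5, 80.2, 76.6, 83.7 and 79.6 FPKM with saline and 75.7, 76.2, 75.6, 79.5 and 73.9 with StcE, and StcE replicate 5 alone lay within the saline range. Its log2 fold change was -0.07 (95% interval -0.13 to -0.01, limma adjusted p = 0.115). *Nectin3* (chromosome 16, 46387706 to 46498525), whose protein binds nectin-1 and nectin-2 on the facing cell, had 2.79, 2.33, 2.52, 2.50 and 2.76 FPKM with saline and 2.57, 2.86, 2.66, 2.51 and 2.62 with StcE. The groups were interleaved, with a log2 fold change of 0.03 (95% interval -0.07 to 0.13, limma adjusted p = 0.75).

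*Nectin3* stood at 2.905 to 3.472% of the FPKM of *Nectin2* with saline and 3.160 to 3.745% with StcE. This log2 ratio differed by 0.11 (standard error 0.067, exact two-sided permutation test, p = 0.167, adjusted p = 0.167). *Afdn* (chromosome 17, 13760539 to 13906150) encodes afadin, which ties nectins to actin. Its FPKM was 37.4, 34.7, 36.9, 39.1 and 35.7 with saline and 33.8, 36.0, 36.4, 37.2 and 39.9 with StcE. Both means of *Afdn* were 36.7 FPKM, the log2 fold change was -0.003 (95% interval -0.10 to 0.09, limma adjusted p = 0.973), and its highest and its lowest value were both in StcE samples.

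**Figure D4:**
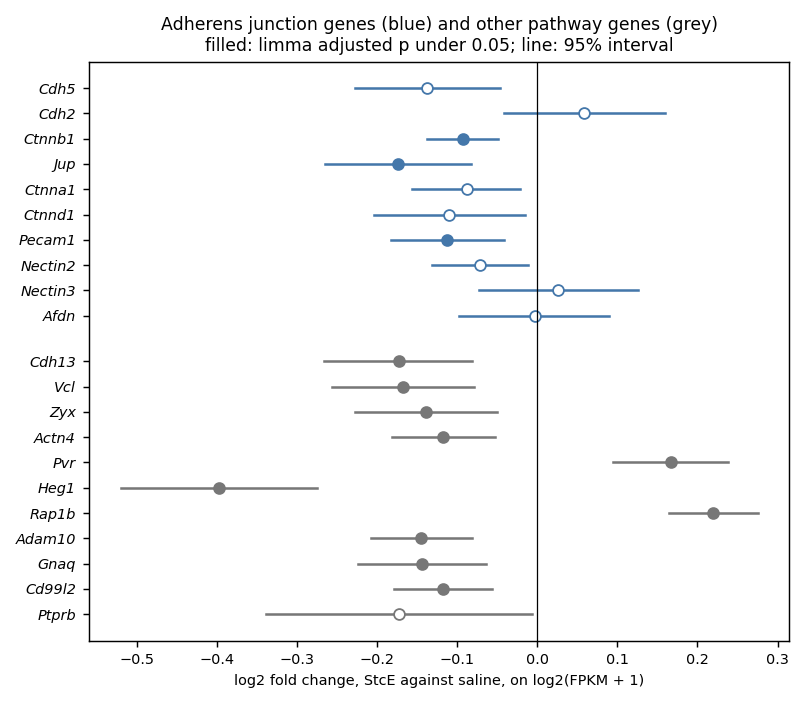
Log2 fold changes of StcE against saline on log2(FPKM + 1), with 95% intervals from limma, for the 10 adherens junction genes (blue) and 11 other genes of the pathway (grey). Filled points have an adjusted p under 0.05. Grey genes were drawn from those called, with *Ptprb* and *Vcl* named whatever their values, whereas 51 of 61 tested pathway genes were not called. *Heg1* lies farthest to the left (-0.40) and *Rap1b* farthest to the right (0.22).

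Single samples stood at the edge of their group for several of the 10 genes. Saline replicate 4 was the highest of its group for 5 genes (*Cdh5*, *Ctnna1*, *Pecam1*, *Afdn* and *Nectin2*). StcE replicate 1 was the lowest of its group for 5 (*Cdh5*, *Ctnna1*, *Ctnnd1*, *Pecam1* and *Afdn*), and had the lowest weight of any sample in limma's array weights (0.64). Of these libraries, the deposited scale differed from what the total of recovered fragments gives by 1.25% for saline replicate 4 and by -1.56% for StcE replicate 1. With array weights the same 3 genes were called, and *Cdh5* had a log2 fold change of -0.12. With scaling by total fragments 4 genes were called, these 3 and *Cdh5*.

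Endothelial markers outside the adherens junction genes moved as well. The 14 markers include *Cdh5* and *Pecam1*, which are adherens junction genes already described. Of the 14, 6 were lower (*Pecam1* itself, and *Flt1*, *Tek*, *Tie1*, *Erg* and *Esam*) and 1 was higher (*Egfl7*). The remaining 7, *Cdh5* among them, did not pass the test. By the same rule 6.41% of all genes tested were lower and 5.52% higher. The summed FPKM of the 14 ranged from 2151.0 to 2307.1 with saline and from 2087.6 to 2173.6 with StcE, and this sum includes *Cdh5* and *Pecam1*. The summed mural markers ranged from 2.09 to 5.12 and from 2.68 to 4.57 FPKM. In these bulk samples, fewer cells of a type and less RNA per cell cannot be told apart.

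The rest of the pathway was followed in 88 other genes grouped by role, of which 83 were measured and 61 were expressed highly enough to test. Of the 61, 8 were lower, 2 were higher and 51 did not pass the test, with a median log2 fold change of -0.04. By the same rule 6.41% of all genes tested were lower and 5.52% higher, or 11.9% in either direction. These shares also stand beside the counts by role that follow. Of the called pathway genes, *Heg1* and *Rap1b* had the largest log2 fold changes. *Heg1*, a transmembrane receptor that binds the CCM complex at junctions, had 23.9, 23.2, 24.6, 24.5 and 22.7 FPKM with saline and 15.5, 18.5, 17.0, 18.2 and 20.1 with StcE. The groups were well apart, and *Heg1* fell by 0.40 on the log2 scale (standard error 0.0559, limma adjusted p = 0.00112). *Rap1b*, which encodes an isoform of the small GTPase Rap1, rose from 140.2, 147.9, 147.1, 140.5 and 149.1 FPKM to 172.9, 168.1, 172.5, 165.1 and 166.2. Its log2 fold change was 0.22 ± 0.0252 (standard error), with a limma adjusted p of 2.7e-04. *Rap1a*, the other isoform, had 21.7 and 21.2 FPKM on average (limma adjusted p = 0.498). The other tested genes of Rap1 signalling and the CCM complex did not pass the test either, with limma adjusted p-values of 0.0834 (*Rapgef1*), 0.593 (*Rasip1*), 0.798 (*Krit1*), 0.827 (*Ccm2*) and 0.451 (*Pdcd10*).

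These 2 genes were the only ones called among 25 tested phosphatases, kinases and GTPase regulators of VE-cadherin. *Ptprb* encodes VE-PTP, the phosphatase that associates with VE-cadherin. It went from a mean of 48.3 ± 3.28 to 42.9 ± 5.25 FPKM, with a log2 fold change of -0.17 (limma adjusted p = 0.164). Its StcE samples ran from 36.0 to 50.7 FPKM, and without StcE replicate 6, the highest of them, the adjusted p was 0.0386.

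Of 12 other catenins and actin linkers tested, 3 were lower and 0 higher, with 4 at an unadjusted p under 0.05 (27.8% of all genes tested) and a median log2 fold change of -0.03. *Vcl* encodes vinculin, which binds α-catenin under tension. It went from 30.7 ± 1.31 to 27.3 ± 1.5 FPKM (limma adjusted p = 0.0219), with no overlap between the groups. *Actn4*, an α-actinin that cross-links actin, went from 300.1 ± 6.04 to 276.8 ± 11.4 (limma adjusted p = 0.0261). *Zyx*, a LIM protein of actin-anchoring sites, went from 34.2 ± 1.71 to 31.0 ± 1.5 FPKM (limma adjusted p = 0.0466).

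*Cdh13*, which encodes the glycolipid-anchored T-cadherin, was the 1 call among the 6 tested genes in the list of other cadherins. It had 18.6 ± 0.867 and 16.3 ± 0.951 FPKM (log2 fold change -0.17, limma adjusted p = 0.0227). That list does not hold every cadherin. *Cdh26*, which is in none of the pathway lists, went from 13.1 ± 0.53 to 10.8 ± 0.279 FPKM with no overlap (log2 fold change -0.26, limma adjusted p = 3.5e-04). Of 6 other nectins, nectin-like proteins and partners, *Pvr* was called. It encodes a nectin-like receptor that binds nectin-3, and it rose from 8.39 ± 0.274 to 9.54 ± 0.396 FPKM (log2 fold change 0.17, limma adjusted p = 0.00765), with no overlap. *Adam10*, the protease that sheds the outer part of cadherins, went from 66.6 ± 1.75 to 60.1 ± 2.20 FPKM (log2 fold change -0.14, limma adjusted p = 0.00852), the 1 call of 6 genes of cadherin cleavage and turnover.

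Of 4 tested PECAM-1 partners and lateral border proteins, 2 were lower. *Gnaq*, a G protein α subunit found with PECAM-1 at junctions, had means of 39.1 ± 1.10 and 35.3 ± 1.96 FPKM (limma adjusted p = 0.0279). *Cd99l2*, a border protein used by leukocytes as they cross, had 14.4 ± 0.528 and 13.2 ± 0.266 FPKM (limma adjusted p = 0.021). Of the desmosomal proteins, 2 of 8 measured reached 1 FPKM (*Pkp1* and *Pkp2*). By limma 0 of these 2 was called, and 0 had an unadjusted p under 0.05.

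*Heg1*, *Rap1b*, *Pvr* and *Adam10* passed the test with any 1 sample left out. Each of the other calls of the pathway was lost in at least 1 omission. The count of lower genes went from 8 to 3 without saline replicate 1, 3 without saline replicate 3, 5 without saline replicate 4 and 4 without StcE replicate 3. Calls over all genes tested dropped in the same fits, from 709 lower to 428, 486, 505 and 409 in that order. *Cd99l2* missed the threshold without saline replicate 3 (limma adjusted p = 0.0515). *Cdh13* missed it without saline replicate 1 (0.0584), saline replicate 3 (0.0511) or StcE replicate 5 (0.0532), and *Vcl* without saline replicate 1 (0.0569), saline replicate 4 (0.0517) or StcE replicate 3 (0.0572). *Gnaq* missed it without saline replicate 1 (0.0687), saline replicate 3 (0.0644), StcE replicate 1 (0.0579) or StcE replicate 3 (0.0699). *Actn4* missed it without saline replicate 1 (0.0666), 3 (0.0565) or 4 (0.0539) and without StcE replicate 3 (0.0664) or 5 (0.0543). *Zyx* missed it in 8 of 10 omissions, all but saline replicate 5 and StcE replicate 6 (limma adjusted p 0.0134 to 0.106 over the 10).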

How the data were processed

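RNA-seq of 10 bEnd.3 samples (5 saline, 5 StcE) was analysed. The authors made poly(A)-selected, strand-keeping libraries, and their processing notes name HISAT2 2.0.5, featureCounts 1.5.0-p3, DESeq2 1.32.0 and build mm10. The authors deposited FPKM with 1 column per sample for 27024 named rows, and 22874 further rows were empty. Counting settings and annotation release are not given in the sources used here. Multiplying by GENCODE vM21 exon lengths returned whole fragments (within 0.05) for 96.6% of values, and each sample's scale followed its median-of-ratios size factor. Fragment-based limits cover counting error only. A gene of 1 kilobase with 3 fragments would have 0.0857 to 0.131 FPKM.

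Genes were kept when their FPKM averaged 1 or more (11062 genes). The log2(FPKM + 1) values were compared by limma (version 3.58.1, R 4.3.3, eBayes with trend), adjusted by Benjamini-Hochberg over every gene kept, and single values by exact two-sided permutation over 252 arrangements. The procedure was tested on simulated data. Pairs of replicates differed by more than sampling noise (chi-square per degree of freedom 3.05 to 8.42). Named genes were the 10, up to 3 called genes with the largest change in each pathway list, *Ptprb* and *Vcl*. Cell type markers were named for the check of identity. *Rap1a*, the genes of Rap1 signalling and the CCM complex, *Pkp1*, *Pkp2* and *Cdh26* were named after their values were seen. The members, lists and ratios were chosen with earlier results of these data known. *Cdh1* and 4 other pathway genes were not analysed here.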

Additional observations from a re-analysis of the deposited data

How the results depend on the processing

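Across 209 refits of the 10 genes under 21 alternatives, 202 kept their direction. Some of the refits could not turn, because the filter on low FPKM and the eBayes settings do not alter the fold change. The refits also share most of their samples. The 7 that turned were all of *Afdn*, at a log2 fold change of 0.001 with upper quartile scaling, 0.006 with scaling by total fragments, 0.001 with array weights and 0.003, 0.018, 0.025 and 0.003 without saline replicate 1, saline replicate 4, StcE replicate 1 and StcE replicate 2. Over all 10 omissions *Afdn* ranged from -0.033 to 0.025. The count of lower adherens junction genes (3) was 1 with no filter on low FPKM, 0 with the replicate block, 1 in the same 8 samples not blocked, and 2 to 3 with 1 sample left out. For the other pathway genes the lower count (8) was 3, 1 and 3 in these fits and 3 to 10 with 1 sample left out, and the higher count (2) was 1 with the replicate block. Same-numbered samples did not deviate together (correlations of deviations -0.097, -0.023, -0.027 and 0.054 for replicates 1, 2, 3 and 5). With the block, the log2 ratio of *Cdh2* to *Cdh5* was 0.186 (exact p = 0.125, the smallest that 4 pairs allow) and that of *Jup* to *Ctnnb1* -0.129 (exact p = 0.25). The latter was -0.081 with a pseudocount of 1 and -0.142 to -0.090 with 1 sample left out. *Ctnnb1* passed the threshold in 20 of 21 alternatives, *Jup* in 18, *Pecam1* in 7 and *Cdh5* in 3, which were scaling by total fragments (limma adjusted p = 0.0427), voom on recovered fragments (0.0178) and robust eBayes (0.0438). Voom, which could not include *Ctnna1*, called 836 genes lower and 654 higher of 10445, against 709 and 611 of 11062. The count over all genes was 409 and 392 with no filter and 162 and 187 with the block. Depth limits *Jup* and *Nectin3* most.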
